A study of Mus musculus with 2 samples.

Results

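Macrophages chosen by Folr2, the beta form of the folate receptor, and by other genes of resident macrophages were examined in gonadal white adipose tissue (gWAT) of mice with and without Pgam1 in their fat cells. Cells were chosen by measured values, in 4 steps. A barcode was kept with UMIs (unique molecular identifiers, 1 for each captured transcript) of 500 or more genes and no more than 10% of them mitochondrial. It was called C1q positive when C1qa, C1qb and C1qc together had at least 3 UMIs, Dcn fewer than 10 and Cd79a none. It was selected when Folr2, Fcna, Cbr2 and Cd209f together (the marker sum) had at least 2 UMIs, and when this sum was larger than that of Lyz1, Mmp12, Ear2 and Retnla (the second sum). This gave 112 selected cells among 4839 kept cells and 11252 barcodes, with 102 from the control and 10 from the KO library.

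The 2 libraries held stromal vascular fraction (SVF), the cells that remain once fat cells have been digested out of the tissue, and were made with 10x Chromium 3′ chemistry. Both came from male C57BL/6 mice 13 weeks of age by the labels. The control is called littermate wildtype in the labels and is Pgam1 flox/flox without Cre in the methods. The KO carried Adipoq-Cre with Pgam1 flox/flox, so that both genotypes share the floxed alleles. The Adipoq promoter drives Cre in adipocytes, and macrophages were not the target of the deletion. The number of mice behind each library is not given in the sources used here, and with 1 library per genotype no test of genotype was possible. The comparison asks which genes these macrophages express next to adipocytes that lack the glycolytic enzyme phosphoglycerate mutase 1, and in what share of cells they are found.

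Macrophages that live in a tissue for a long time take up dying cells, lipoproteins and iron, and many hold scavenger receptors and C-type lectins at their surface. In adipose tissue such cells lie along vessels and are known for the hyaluronan receptor Lyve1, the phosphatidylserine receptor Timd4, the mannose receptor Mrc1 and Folr2. Folr2 binds folate, Fcna encodes the secreted lectin ficolin A, Cbr2 a carbonyl reductase and Cd209f a C-type lectin. Pf4 encodes a chemokine also stored in platelets, and F13a1 the A chain of coagulation factor XIII. Retnla, the largest contributor to the second sum, encodes a secreted protein that interleukin 4 induces in macrophages.

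The genes of the rule lie on several chromosomes of GRCm38 (mm10). Folr2 is at chr7:101839988-101857194 on the minus strand, Fcna at chr2:25624666-25628030 (minus), Cbr2 at chr11:120729489-120732114 (minus) and Cd209f at chr8:4102787-4105835 (minus). Pf4 is at chr5:90772435-90773383 (plus), F13a1 at chr13:36867178-37050244 (minus) and Retnla at chr16:48842551-48844461 (plus). UMIs were counted per gene and not per exon.

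The promoters of Pf4, found in every selected control cell, and of Retnla, which set most selected cells apart from the other marker-positive cells, are shown from 250 bases before to 50 bases after the start in RefSeq (GRCm38.p6). Their positions are chr5:90772185-90772484 and chr16:48842359-48842658, both on the plus strand. Capitals mark the letters GAGGAA, the core bound by the macrophage factor PU.1 (gene Spi1), searched on both strands. Both promoters held them 1 time, on the opposite strand, so that they read TTCCTC here.
Pf4: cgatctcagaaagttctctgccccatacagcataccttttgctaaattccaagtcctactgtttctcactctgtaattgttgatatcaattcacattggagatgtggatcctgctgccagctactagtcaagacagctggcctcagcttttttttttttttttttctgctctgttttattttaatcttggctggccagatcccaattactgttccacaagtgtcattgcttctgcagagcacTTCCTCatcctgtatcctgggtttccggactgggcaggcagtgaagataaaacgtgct
Retnla: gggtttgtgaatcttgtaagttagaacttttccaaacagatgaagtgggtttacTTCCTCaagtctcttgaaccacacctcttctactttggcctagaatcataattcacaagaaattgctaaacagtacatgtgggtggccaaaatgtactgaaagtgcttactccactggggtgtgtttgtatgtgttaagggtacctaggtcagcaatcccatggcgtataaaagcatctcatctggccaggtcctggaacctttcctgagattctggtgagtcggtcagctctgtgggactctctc
The same letters stood in 28.3% of the 32851 promoters of that length, and a match is a description and not a site. Spi1 was at 322 CPM (CPM is a gene's UMIs among 1e+06 UMIs of the summed cells) in the selected control cells and at 318 CPM in the Retnla-rich cells with the same markers, a log2 ratio of 0.02 (-0.20 to 0.23).

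Among C1q positive cells the selected share was 18.8% in the control (102 of 543 cells, exact 95% interval 15.6 to 22.3%) and 14.9% in the KO library (10 of 67 cells, 7.40 to 25.7%). These intervals overlap. All C1q positive cells with a marker sum of at least 2, whatever their second sum, were 68.7% (64.6 to 72.6%) of C1q positive cells in the control and 43.3% (31.2 to 56.0%) in the KO library, and these intervals do not overlap. Among all kept cells the share of selected cells was 2.63% (2.15 to 3.18%) and 1.04% (0.502 to 1.91%). C1q positive cells as a whole made up 14.0% and 6.99% of kept cells. All intervals cover counting error only, and the loading and digestion of 1 library cannot be told apart from genotype. With each cell thinned to 2000 UMIs, the selected cells were 18.1% (85 of 469) and 8.16% (4 of 49) of C1q positive cells, and 358 control and 102 KO cells were too shallow to be thinned. A further 74 control and 3 KO barcodes met the marker conditions but failed the limits on genes or mitochondrial UMIs. The libraries had 9 barcodes in common, none of them a selected cell.

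The selected control cells held 755156 UMIs in all, with a median of 6790.5 per cell (range 996 to 27142). The selected KO cells held 113097 UMIs and were deeper, with a median of 11612.5 (range 1621 to 16324). The marker sum, which chose the cells, had a median of 14 UMIs among control cells (range 2 to 109) and of 5 among KO cells (range 2 to 60). Just inside the limit, 6 control and 3 KO cells had a marker sum of 2. Just outside it, 7 control and 3 KO cells had a sum of 1 and no UMI of the second sum. On the other condition, 17 control cells were inside by 1 to 3 UMIs, with Pf4 at 4374 CPM, and 14 outside by 0 to 3, with Pf4 at 1535 CPM.

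Macrophage genes that the rule did not use were found in most cells. In the control, Csf1r, the receptor of the macrophage growth factor, was found in 97 of 102 cells and Adgre1, which encodes F4/80, in 85. C1qa, a gene of the rule, was found in 101. In the KO library each of these was found in 10 of 10 cells. The 6 markers were less even. In the control, Pf4 was found in 102 cells, Cbr2 in 100, F13a1 in 99, Folr2 in 92, Fcna in 53 and Cd209f in 44. In the KO library, Cbr2 and F13a1 were found in 10 of 10 cells and Pf4 in 9, but Folr2 in 3, Fcna in 2 and Cd209f in 2. The name Folr2 positive thus described 92 of 102 control cells and 3 of 10 KO cells, and the group is called the selected cells here. Free RNA gave these genes little background: Folr2 was found in 0.957% of control T cells, Cbr2 in 1.20%, Cd209f in 0.478% and Pf4 in 5.26%, at a median of 4606.5 UMIs per T cell.

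**Figure D1:**
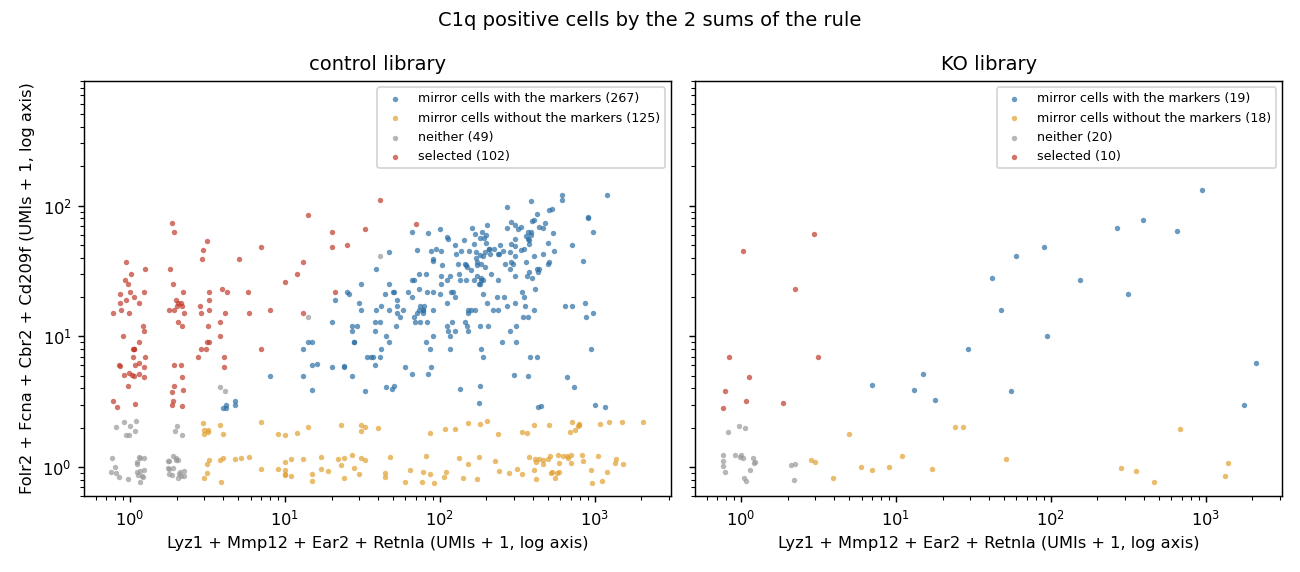
Each point is a C1q positive cell of the control (left) or KO library (right), by its UMIs of the second sum (x axis) and of the marker sum (y axis), both plus 1 on log axes with a small jitter at low values. Selected cells (102 and 10) lie at the left, and mirror cells with the same markers (267 and 19) spread to the right at marker sums that are as high.

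The same markers were not particular to the selected cells. Cells of the mirror rule, with a second sum of at least 2 and larger than the marker sum, numbered 392 (control) and 37 (KO), and 267 and 19 of them also had a marker sum of at least 2. These mirror cells with the markers had Folr2 at 1094 CPM, against 805 CPM (exact Poisson interval 742 to 872) in the selected control cells. Fcna was at 854 and 393 CPM, Cd209f at 636 and 463 CPM, and Cbr2 at 912 and 926 CPM. In the 125 control mirror cells without the markers, Folr2 was at 5.66 CPM. What set the selected cells apart by construction was Retnla, at 499 CPM against 26582 CPM in mirror cells with the markers. Of the other genes of the second sum, Lyz1 was found in 6, Ear2 in 2 and Mmp12 in 1 of the 102 selected control cells. Lyz1 was at 178 and Ear2 at 72.5 CPM in mirror cells with the markers, and at 2730 and 869 CPM in those without.

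Among the 373 control cells with a marker sum of at least 2, Retnla had 0 to 2 UMIs in 84 cells, 3 to 10 in 16 and more than 10 in 273. The cells thus fell mostly to either side, with few between. In the KO library the numbers were 12, 0 and 17. A Retnla UMI was found in 40.0% of control T cells and 11.4% of KO T cells, so that a single Retnla UMI can be background. The selected cells were thus mostly the Retnla-low fraction of the marker-positive macrophages, 27.3% of those of the control (102 of 373, 22.9 to 32.2%) and 34.5% of those of the KO library (10 of 29, 17.9 to 54.3%).

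Since the rule compared cells within a library, the values against mirror cells are descriptions with no test. Against all mirror cells of the control, 237 of 8007 genes with at least 50 UMIs were at least 2-fold higher in the selected cells (2.96%) and 252 lower (3.15%). With TMM factors in place of CPM these numbers were 140 and 345, since the scaling lowers every ratio alike (that of Slc40a1 from 2.12 to 1.98). Against mirror cells with the markers alone, 96 of 6844 genes were higher (1.4%) and 89 lower (1.3%). The median log2 ratio over these genes was 0.04. The nearer comparison is the second, and its ratios are given below unless stated.

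Genes of uptake and residence were high in both kinds of cell. Mrc1 was at 2525 CPM in the selected cells and 2085 CPM in mirror cells with the markers, and Dab2, an adaptor of clathrin endocytosis, at 1902 and 1358 CPM. Maf, a transcription factor of resident macrophages, was at 1859 and 1613 CPM. Stab1, which encodes the scavenger receptor stabilin 1, was at 1081 and 651 CPM, with a log2 ratio of 0.73 (exact interval 0.60 to 0.86). Pf4 was at 4639 and 3342 CPM (log2 ratio 0.47, 0.41 to 0.53). Lyve1 went the other way, at 424 and 1196 CPM (log2 ratio -1.50, -1.67 to -1.33), as did Ltc4s, which encodes leukotriene C4 synthase, at 352 and 743 CPM. Of the 19 further resident genes with enough UMIs, none was 2-fold higher and these 2 were 2-fold lower, with a list median of -0.12. Over all genes 1.4% were higher and 1.3% lower.

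Several chemokines were higher in the selected cells than in mirror cells with the markers. Of 20 chemokines and chemokine receptors, 7 were at least 2-fold higher and 2 lower (1.4% and 1.3% of all genes), with a median of 0.40. Ccl12, a ligand of Ccr2, was at 262 CPM in the selected cells and 40.1 CPM in mirror cells with the markers (log2 ratio 2.71, 2.34 to 3.09). Ccl7, a ligand of the same receptor, was at 285 and 45.6 CPM (2.64, 2.29 to 3.00), and Ccl4, another inflammatory chemokine, at 126 and 16.4 CPM (2.94, 2.37 to 3.53). These RNAs came from a minority of cells: Ccl12 from 23 of 102 cells, with 69 of 198 UMIs in 1 cell, Ccl7 from 35 and Ccl4 from 14. Ccl12 was at 80.4 CPM in the 61 selected cells with a marker sum over 10. It was at 267 CPM at a sum of 2, 338 at 3 to 5 and 1167 at 6 to 10. Cxcl2, a neutrophil attractant, was found in 22 cells with a log2 ratio of 1.80, and Ccl2 in 38 with 1.37. Cx3cr1, the fractalkine receptor, was found in 21 cells and was at 184 against 47.0 CPM (1.97, 1.59 to 2.35). All 91 UMIs of Cxcl10, an interferon-induced chemokine, were in 1 cell. These chemokines were not particular to the selected cells. In the 49 C1q positive control cells that met neither rule, with Folr2 at 72.6 CPM, Ccl12 was at 650 CPM, Ccl7 at 240, Ccl4 at 156, Cxcl2 at 548 and Ccl2 at 603 CPM, and Cx3cr1 at 1096 CPM. Lower in the selected cells than in mirror cells with the markers were Ccl6, at 1281 against 3077 CPM, and Ccr2, the receptor of recruited monocytes, at 428 against 946 CPM.

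Of 14 iron genes, 2 were at least 2-fold higher than in mirror cells with the markers and none was lower. Over all genes 1.4% were higher and 1.3% lower. Slc40a1, which encodes the iron exporter ferroportin, was at 316 CPM in the selected cells, 123 CPM in mirror cells with the markers and 3.14 CPM in those without, with a log2 ratio of 1.36 (1.10 to 1.62) against the former. In the 49 cells that met neither rule it was at 7.26 CPM. Steap4, a metalloreductase, was at 56.9 against 15.5 CPM and found in 12 cells. The other 12 genes of the iron list were within 2-fold, among them Fth1 and Ftl1 for ferritin, Hmox1 for haem oxygenase 1, and Cd163, the receptor of haemoglobin bound to haptoglobin (608 and 650 CPM). Vcam1, an adhesion molecule, was found in 22 cells at 59.6 against 10.5 CPM (2.51, 1.75 to 3.30). The C-type lectin Clec4n, in 32 cells, was at 91.4 against 15.5 CPM, and the activating receptor Lilra5, in 15 cells, at 39.7 against 10.9 CPM. In the 49 cells that met neither rule Clec4n was at 43.6 and Lilra5 at 61.7 CPM, so that Lilra5 was not particular to the selected cells.

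Few genes of antigen presentation, lysosome and lipid handling passed 2-fold, as held for all genes (1.4% higher and 1.3% lower). Of 9 class II genes none passed 2-fold (median 0.10), with the invariant chain Cd74 at 9762 and 9355 CPM. Of 23 lysosomal genes none passed (median -0.04). Of 15 genes of lipid-associated macrophages 1 was lower, Mmp12, which is a gene of the rule, and the median was -0.12. Of 12 macrophage core genes, Cx3cr1 was the one past 2-fold. Apoe, the apolipoprotein that carries cholesterol out of cells, was at 8271 and 7162 CPM.

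Among the genes with the smallest ratios against all mirror cells, Fn1, which encodes fibronectin, was highest in mirror cells without the markers, being at 142 CPM in the selected cells, 337 CPM in mirror cells with the markers and 5029 CPM in those without. Aldh1a2, an enzyme of retinoic acid synthesis, had 3 UMIs in 1 selected cell and was at 160 CPM in mirror cells without the markers. Cd300lg, Ndnf, Net1, Plcb1, H2-DMb2 and Ube2c had 1 to 3 UMIs each in the selected control cells, and Cxcl9 had none. Among the 15 largest ratios were also genes of other cell types: Meg3 (109 of 116 UMIs in 1 cell), Prrx1 (31 of 39 in 1 cell), Postn (27 of 50 in 1 cell), Gzma (53 of 57 in 1 cell), Nkg7 (34 of 47 in 1 cell), Thy1 (44 UMIs, 8 in the highest cell) and Col14a1 (30 UMIs, 7 in the highest cell).

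**Figure D2:**
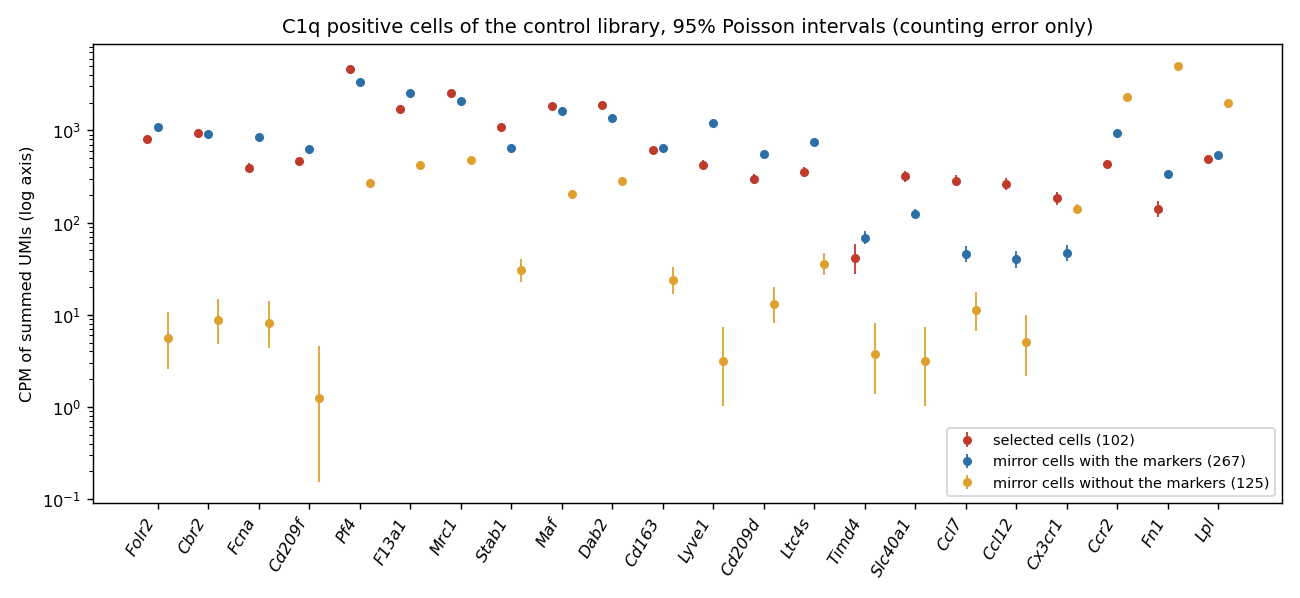
CPM of summed UMIs (log axis) of 22 genes in the selected cells (102), mirror cells with the markers (267) and mirror cells without the markers (125) of the control library, with exact 95% Poisson intervals. Of the 6 markers, Cbr2 is level in the first 2 groups, Pf4 is higher and Folr2, Fcna, Cd209f and F13a1 are lower in the selected cells, and Slc40a1, Ccl7, Ccl12 and Cx3cr1 are higher and Lyve1 is lower in the selected cells.

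The selected control cells were not uniform. A Lyve1 UMI was found in 59 cells and none in 43, at median depths of 7399 and 6024 UMIs. This split was chosen after values were seen and is described with no test. Timd4 was at 60.2 CPM with Lyve1 and 7.32 CPM without, in 12 and 2 cells. Fcna was at 583 and 58.6 CPM (log2 ratio 3.32, 2.59 to 4.14), and the lectin gene Cd209d at 434 and 54.9 CPM (2.98, 2.23 to 3.84). The eosinophil attractant Ccl24 was at 726 and 139 CPM (2.38, 1.90 to 2.91). Folr2 itself was at 994 and 472 CPM, and Cd163 at 730 and 392 CPM. Fcna and Folr2 chose the cells, so their ratios are no support. Retnla, the other side of the rule, was also higher with Lyve1, at 689 and 165 CPM. Of the genes outside the rule, Timd4, Cd209d, Ccl24 and Cd163 were higher in cells with Lyve1. The part of the rule in these ratios was not tested.

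Cells without Lyve1 had other genes at higher levels. Cx3cr1 was at 377 CPM without Lyve1 and 74.7 CPM with it, found in 14 of 43 and 7 of 59 cells (log2 ratio -2.34, -2.93 to -1.77). Ccr2 was at 695 and 276 CPM, in 18 and 14 cells. Ccl12 was at 520 and 116 CPM and Ccl7 at 527 and 147 CPM, but more cells with Lyve1 had a UMI of either gene (16 against 7 cells for Ccl12, 21 against 14 for Ccl7), so the difference lay in the amount per cell. Of the 142 Ccl12 and 144 Ccl7 UMIs without Lyve1, 69 and 77 were in 1 cell each, and without the cell with the most UMIs of the gene Ccl12 was at 279 and Ccl7 at 256 CPM. Lpl and Fn1 were also higher without Lyve1, with 135 of 263 and 73 of 82 UMIs in 1 cell each. Without that cell Lpl was still higher, at 489 CPM against 228 CPM in all cells with Lyve1. Fn1 was then at 34.3 CPM, against 51.9 CPM in all cells with Lyve1. There too 1 cell held 10 of the 25 Fn1 UMIs, so no direction is given for Fn1. Pf4 (4789 and 4373 CPM), H2-Ab1 (3920 and 3601 CPM) and Cd74 (9466 and 10284 CPM) were nearly level, and Mrc1 was at 2760 and 2112 CPM.

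**Figure D3:**
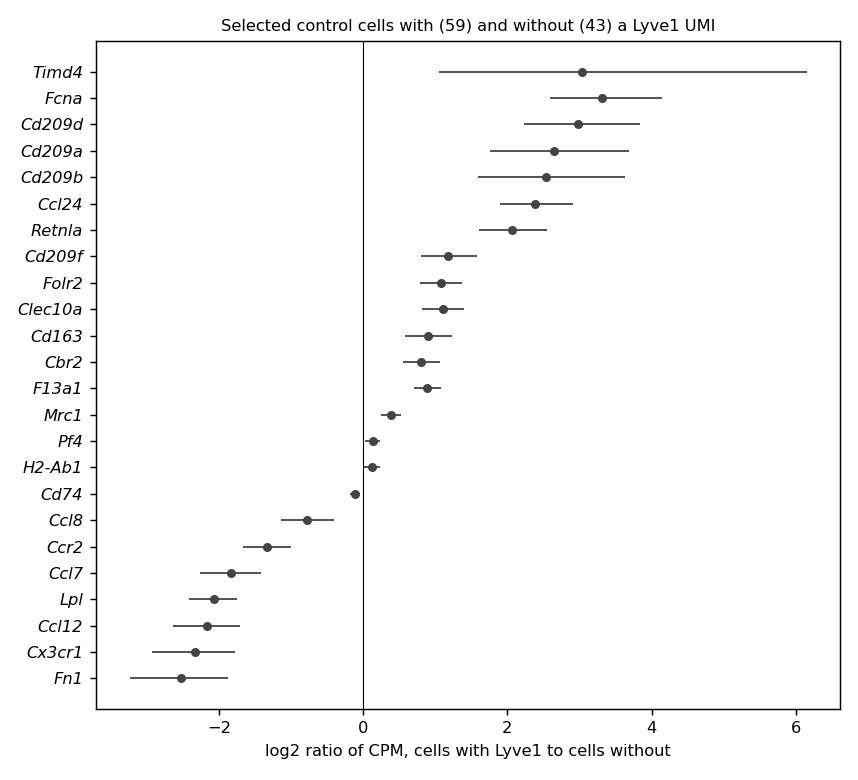
The log2 ratio of CPM between selected control cells with (59) and without (43) a Lyve1 UMI is plotted for 24 genes, with exact 95% intervals for counting error only. Timd4, Fcna and the Cd209 genes lie to the right, Cx3cr1, Ccl12 and Ccr2 to the left, as does Fn1 through the 73 of its 82 UMIs without Lyve1 that 1 cell held, and Pf4, H2-Ab1 and Cd74 close to 0.

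The 10 selected KO cells can be described one by one. Folr2 had 23, 16 and 5 UMIs in the cells with marker sums of 60, 44 and 22, and none in the other 7. These 3 cells had 84, 78 and 84 UMIs of Pf4 and 30, 47 and 35 of Mrc1. Lyve1 had 2 and 9 UMIs in 2 of the 3 and none elsewhere. In the other 7 cells Cbr2 was the single selecting gene found, with 2 to 6 UMIs. Of these 7, 6 were C1q and Pf4 rich, with C1q sums of 28 to 272 and 16 to 61 UMIs of Pf4. The last had a C1q sum of 13, no Pf4 and no Mrc1, and held 113 UMIs of Cxcl9, an interferon gamma induced chemokine, with 94 of the monocyte gene Plac8, 180 of Hmox1, 56 of the guanylate-binding protein gene Gbp2 and 45 of the transglutaminase gene Tgm2. Another cell held 104 of 125 Ccl12 and 33 of 41 Il1b UMIs, and yet another all 32 Ccl3 UMIs. Cells with such profiles were single, and 1 cell each sets the library's level of these genes.

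**Figure D4:**
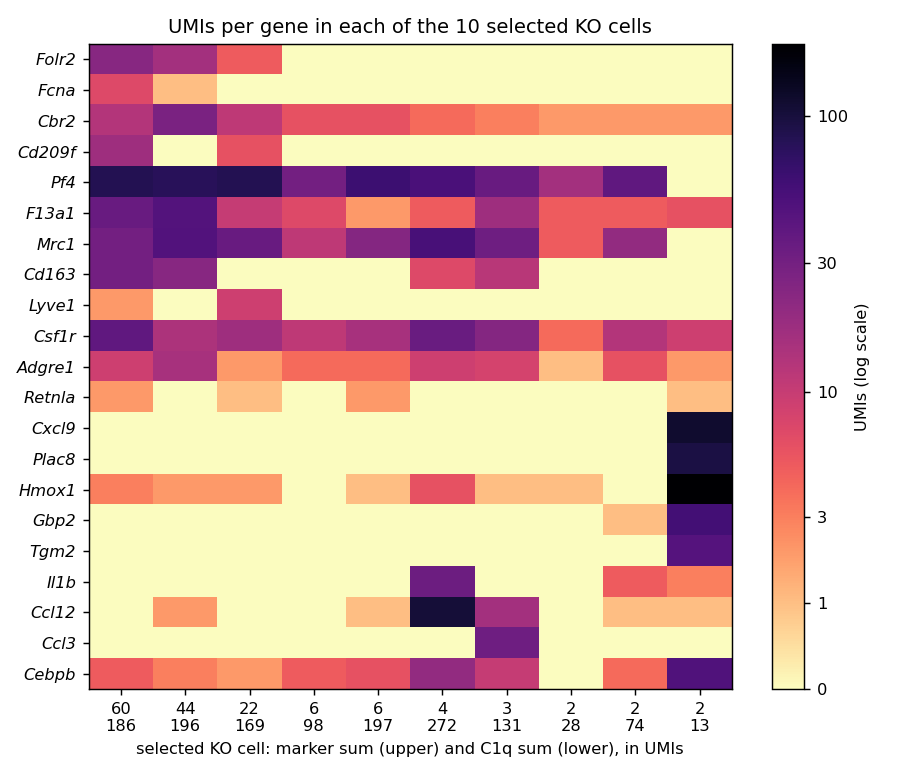
UMIs (colour, log scale) of 21 genes in each of the 10 selected KO cells, ordered by the marker sum, which stands under each column above the C1q sum. Folr2 is found in the 3 cells at the left, and Cxcl9, Plac8, Hmox1, Gbp2 and Tgm2 are concentrated in the cell at the right.

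Over the selected cells, 111 of 2981 genes with at least 50 UMIs in both libraries together were at least 2-fold higher in the KO library (3.72%) and 309 lower (10.4%), with a median log2 ratio of -0.09. The 2 directions were nearly even by interval, which lay above 0 for 258 genes and below 0 for 252. The KO cells held 113097 UMIs against 755156, so genes near the minimum had few KO UMIs and could pass 2-fold lower by counting error. Of the 111 genes, 30 had more than 50% of their KO UMIs in 1 cell, 16 of them in the cell rich in Cxcl9. Without that cell, 84 of 2927 genes were higher and 332 lower, and 70 of the 111 were still 2-fold higher. Of the 309 genes, 129 had 0 to 3 UMIs in the KO cells.

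The targeted enzyme was little expressed. Pgam1 (chr19:41911923-41918660, plus strand) had 50 UMIs in 42 of 102 control cells (66.2 CPM, 49.1 to 87.3) and 10 UMIs in 7 of 10 KO cells (88.4 CPM, 42.4 to 163), a log2 ratio of 0.42 (-0.73 to 1.41). In mirror cells it was at 100.2 CPM in the control and 215 CPM in the KO library (1.10, 0.78 to 1.41). Pgam2, the muscle form, had no UMI in the selected cells of either library. Since the Cre is directed at fat cells, these counts do not check the deletion. Of the 8 glycolysis genes with enough UMIs, Pgam1 among them, 1 was 2-fold higher, Eno1 for enolase 1, with 50 control and 15 KO UMIs, and none lower (median 0.38), beside 3.72% of all genes higher and 10.4% lower.

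The largest ratios were those of the single cells described above. Cxcl9 had 0 control UMIs and 113 in the KO cells, a log2 ratio of 7.97 with the control count set to the limit of 3 UMIs, and the exact interval reached down to 7.65. Plac8 had 1 control UMI and 94 in that same KO cell, and the interval of its log2 ratio was 6.78 to 14.61. Gbp2 (log2 ratio 5.40), Tgm2 (4.77), Hmox1 (3.47), Il1b (3.93) and Ccl3 (2.93) had 80.5% to 100% of their KO UMIs in 1 cell each. Without the cell rich in Cxcl9, Hmox1 was at a log2 ratio of 0.06. More widely spread were Cebpb, a transcription factor of myeloid and acute phase genes, found in 9 of 10 KO and 42 of 102 control cells (911 and 154 CPM, log2 ratio 2.57, 2.17 to 2.96, and 1.87 without that cell), and Cdkn1a, the cell cycle inhibitor p21, in 6 and 15 cells (398 and 64.9 CPM, 2.62, 2.00 to 3.23). Vcam1 was found in 5 and 22 cells (309 and 59.6 CPM, 2.38, 1.70 to 3.05). In mirror cells the KO to control ratios of these 3 genes were 1.50, 0.99 and 1.20.

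The largest differences in the other direction were mostly genes of other cells, and the haemoglobin genes among them rested on 6 control cells. Hbb-bs, a haemoglobin chain, was at 7628 CPM in the selected control cells and 699 CPM in the KO cells (log2 ratio -3.45, -3.79 to -3.13), and Hbb-bt, Hba-a1 and Hba-a2 were at -4.22, -3.47 and -3.14. These 6 cells, with 100 or more UMIs of erythroid genes, held 10393 of the 11054 such UMIs of the 102 cells, and the others held 43 or fewer each. No KO cell reached that limit, and the median per cell was 6 UMIs for control and 8.5 for KO cells. Without the 6 cells the ratio of Hbb-bs was 0.61 (0.24 to 0.97), that of Hba-a1 0.56, of Hba-a2 0.61 and of Hbb-bt -0.16, so that the lower level in the KO library did not hold over the remaining cells. With the limit of the marker sum at 1, which adds 3 KO cells, 1 of them with 1584 erythroid UMIs, the ratio of Hba-a2 was 0.028. Hba-a1 and Hba-a2 are nearly identical copies, and reads may be split between them. In mirror cells the 4 haemoglobin genes were at -3.01 to -3.59, with 26704 of 29279 control erythroid UMIs in 14 of 392 cells. The summed erythroid list was at 14638 CPM in the selected control cells (917 CPM without the 6 cells) and at 1335 CPM in the KO cells. Sparc (314 and 3 UMIs, interval of the log2 ratio -6.26 to -2.41), Timp3 (231 and 1, at -3.53 with the KO count set to 3) and Rgs5 (233 and 2) are genes of stroma and vessel walls. Rgs5 had 162 of its 233 UMIs in 1 control cell, Sparc 117 and Timp3 82 in 1 cell each, and each of the 3 was also lower in KO mirror cells. The fall was not particular to macrophages, as the T cell ratios were -2.12 (Sparc), -3.34 (Timp3) and -4.13 (Rgs5). In kept cells that were neither C1q positive nor T cells they were 0.15, -0.90 and -1.80. Retnla had 377 and 6 UMIs and is a gene of the rule. Fgfr1, a fibroblast growth factor receptor, had 118 UMIs in 50 control cells and 3 in 2 KO cells.

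**Figure D5:**
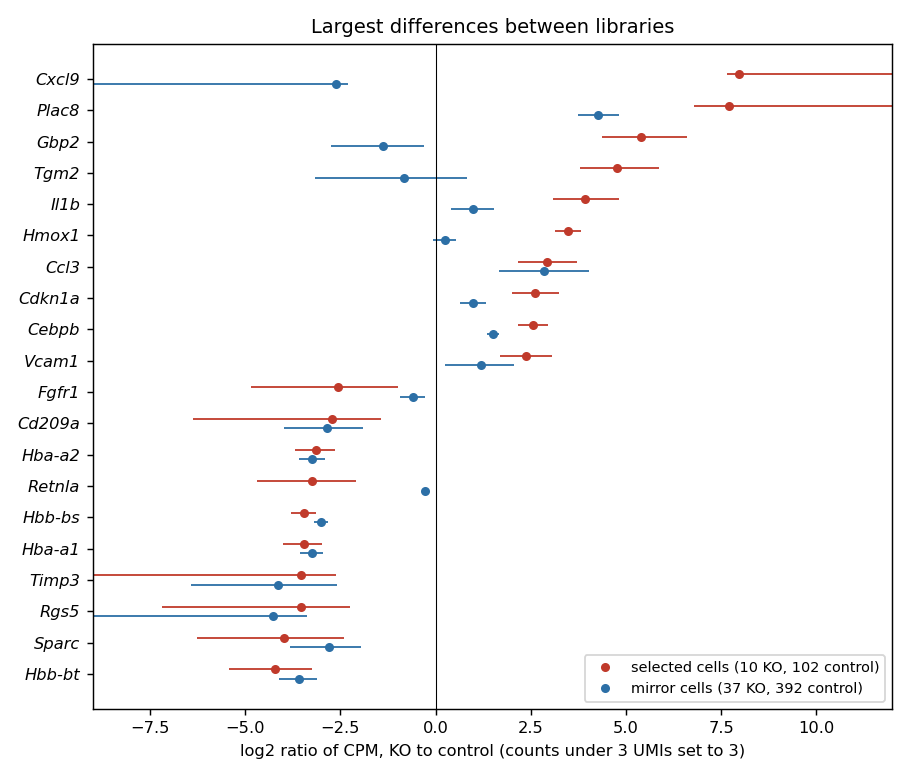
Log2 ratio of CPM of the KO to the control library for the 10 genes with the largest and the 10 with the smallest ratio in the selected cells (upper points, 10 KO and 102 control cells) and in mirror cells (lower points, 37 and 392), with exact 95% intervals cut at the frame. The haemoglobin genes, Sparc, Timp3 and Rgs5 are low in both (the haemoglobin genes through 6 selected control cells), whereas Cxcl9, Gbp2 and Tgm2 lie on opposite sides of 0 (for Tgm2 the interval in mirror cells includes 0, and 132 of the 133 control mirror UMIs of Cxcl9 were in mirror cells without the markers).

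By number of genes, scavenger and endocytic genes were the list with the most members below control. By share other lists had more, such as erythroid genes (4 of 4) and matrix genes (4 of 7). Of 19 scavenger and endocytic genes with enough UMIs, 8 were at least 2-fold lower in the KO cells and none higher. This stands beside 10.4% of all genes lower and 3.72% higher (list median -0.77, against -0.09 over all genes). The 8 lower genes were Cd209a, Cd209b, Cd209d, Cd209f, Cd209g, Lyve1, Cd36 and Fcgrt, and without the cell rich in Cxcl9 6 of the 19 were lower. Cd36, a fatty acid and lipoprotein receptor, had UMIs in 100 control cells of 102 and in all 10 KO cells, at 1482 and 725 CPM (log2 ratio -1.03, -1.37 to -0.71), and Fcgrt, the neonatal Fc receptor, in 87 and 9 cells at 711 and 354 CPM (-1.01, -1.51 to -0.54). Lyve1 was found in 59 and 2 cells, at 424 and 97.3 CPM (-2.12, -3.14 to -1.26). The 5 Cd209 genes, paralogs whose reads may be shared, were found in 1 or 2 KO cells each, and Cd209f is a gene of the rule. Mrc1 (2525 and 2272 CPM), Stab1 (1081 and 1132 CPM) and Cd163 (608 and 637 CPM) had log2 ratios whose intervals included 0. In mirror cells the ratios were -0.92 for Lyve1, -0.70 for Cd36 and -0.80 for Fcgrt, and -2.05 to -2.84 for the Cd209 genes. The genes higher in Lyve1 cells of the control included the Cd209 genes, and 2 of 10 KO cells had Lyve1. The part of this share in the differences was not tested.

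Immediate early genes, which digestion of tissue is known to induce, were at least 2-fold higher in the KO cells in 3 of 18 (Fosl2, Ier3 and Dusp1) and lower in none (median 0.75), and this and the next counts are again to be read beside 3.72% of all genes higher and 10.4% lower. Without the cell rich in Cxcl9, 5 of the 18 were higher and none lower (median 0.86). Fos was at 2900 and 1510 CPM (log2 ratio 0.94, 0.76 to 1.12), in 9 of 10 and 78 of 102 cells, and Dusp1, a phosphatase of MAP kinases, at 2378 and 1025 CPM (1.21, 1.01 to 1.42). In mirror cells the ratios were 0.09 and 0.42. The summed level of the list was 16358 and 10022 CPM in the selected cells and 9609 and 8204 CPM in mirror cells. Of 12 macrophage core genes, 3 were higher and none lower (median 0.48): Cd14, the lipopolysaccharide co-receptor, at 716 and 289 CPM in 8 and 74 cells (1.31, 0.92 to 1.69), Fcgr1, an Fc receptor, at 274 and 96.7 CPM in 9 and 43 cells (1.50, 0.85 to 2.13), and Cx3cr1 at 389 and 184 CPM in 4 and 21 cells. In the KO cells 1 cell held 49.4% of the Cd14 UMIs and 1 cell 68.2% of those of Cx3cr1. Among 20 chemokines and receptors, 6 were higher and 3 lower (median -0.16). Higher were Cxcl9, Ccl3, Ccl12, Ccl4, Cxcl2 and Cx3cr1, and among the lower were Ccl5 and Cxcl12. Ccl4 had 28 of its 34 KO UMIs in 1 cell. Without the cell with most Ccl4 UMIs in each library, it was at 61.3 CPM (KO) and 90.9 CPM (control), so its direction turned. Ccl12 was at 1105 and 262 CPM (2.08, 1.74 to 2.41) but had 83.2% of its KO UMIs in 1 cell. Without the cell with most Ccl12 UMIs in each library, it was at 215 CPM (KO) and 173 CPM (control). In mirror cells the interval of the Ccl12 ratio was -5.81 to -0.85.

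The same shares of all genes stand beside the counts that follow. Of the matrix genes, 4 of 7 were at least 2-fold lower, namely Sparc, Timp3, Mmp9 and Fn1, and none higher. Fn1 had 73 of 107 control UMIs in 1 cell and all 8 KO UMIs in 1 cell, and the interval of its log2 ratio was -2.25 to 0.03. Without that control cell Fn1 was at 45.7 CPM in the control, against 70.7 CPM in all 10 KO cells. Without the KO cell as well, Fn1 was at 0 CPM in the KO library (0 to 37.7). Its direction thus depended on single cells. None of 8 class II genes passed 2-fold (median 0.29), with Cd74 at 13519 and 9762 CPM. Apoe was at 14333 and 8271 CPM (log2 ratio 0.79, 0.71 to 0.87), found in 10 and 100 cells, with 44.1% of the KO UMIs in 1 cell. Of 12 iron genes 1 was higher, Hmox1, and 2 lower: the transferrin receptor Tfrc, with 95 control and 3 KO UMIs, and Slc40a1, at 316 and 141 CPM (-1.16, -1.99 to -0.43). Without the cell rich in Cxcl9, none of the 12 was 2-fold higher and 1 was lower, with Slc40a1 at -0.95. Of 22 lysosomal genes 1 was higher and 2 were lower, shares near those of all genes, with Ctsd at 499 and 221 CPM (-1.18, -1.82 to -0.59). Of 10 tricarboxylic acid cycle genes 2 were lower and none higher. Of 11 complement genes 1 was higher, C3, with all 17 KO UMIs in 1 cell, and none lower. Of 4 interferon-stimulated genes 3 were higher, among them Gbp2, and without the cell rich in Cxcl9 0 of 3 were higher and 1 was lower. Of 16 cytokine receptors 1 was higher, Csf2ra, and 1 lower, Il13ra1. The 18 further resident genes gave 3 lower and none higher (median -0.57), namely Lyve1, Cd209d and Cd209g. The libraries differed in marker sum, with a median of 5 in KO and 14 in control cells. In cells with a marker sum over 10 (3 KO, 61 control), Cd163 was at 1521 (KO) and 710 CPM (control). Mrc1 was at 3215 and 2796 CPM there, and Lyve1 at 316 and 579 CPM. This bin uses the rule itself and is described with no test.

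Markers of other cell types were found in the selected cells. Of the 12 genes of T and NK cells the summed level was 275 CPM in the control and 17.7 CPM in the KO cells, against 4725 and 5140 CPM in T cells. In the control 11 of them were found, led by Gzma, and in the KO cells 1, Cd4. In the control, 1 selected cell held 98 of these UMIs with a C1q sum of 3. Of the 6 mural genes the level was 567 and 35.4 CPM, led by Rgs5 in the control and Acta2 in the KO cells, and 1 control cell held 298 UMIs with a C1q sum of 5. Fibroblast genes were at 502 and 106 CPM, with Dcn the most abundant, and B cell genes at 367 and 327 CPM, with Ighm the most abundant, while Cd79a was at 0 by the rule. Mesothelial genes were at 9.27 CPM in the control and at 0 in the KO cells. Monocyte genes were at 546 and 1424 CPM, the latter led by Plac8 in 1 cell, and dendritic cell genes at 392 and 203 CPM. Endothelial genes were at 460 and 168 CPM, with Lyve1 the most abundant, adipocyte genes at 58.3 and 35.4 CPM, and genes of mast cells and granulocytes at 29.1 and 8.84 CPM. In all, 28 of 102 control and 3 of 10 KO cells had fewer than 3 UMIs of each of the T and NK, B, endothelial, mural, mesothelial and fibroblast lists (Lyve1 left out of the endothelial genes). None of these 3 KO cells had a Folr2 UMI. The B list reached 3 UMIs in 51 control and 6 KO cells, and the fibroblast list in 45 and 1. At 50 UMIs the numbers were 0 and 0 for the B list, and 1 and 0 for the fibroblast list. Scrublet placed 11 selected control cells and none of the KO cells among its highest doublet scores. The part of such cells in the differences above was not tested beyond the counts without them.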

How the data were processed

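Per the submitters' processing notes, the authors aligned reads to mm10 and counted UMIs with Cell Ranger 3.0.1, with Seurat 3.1.5 and R 4.0.1 also named. The deposited values are raw UMI counts per gene and barcode, 1 matrix for each of the 2 libraries, and were used as deposited. The depth over kept cells was 33124889 UMIs for the control and 9710021 for the KO library.

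For each class of cells the UMIs were added up and expressed as CPM with exact 95% Poisson intervals. Shares have exact Clopper-Pearson intervals, and log2 ratios have exact conditional binomial intervals, with counts under 3 set to 3 for the ratio itself. These intervals describe counting error alone. No p-value was computed, as a genotype had a single library. Genes with at least 50 UMIs over both sides of a comparison were counted as higher or lower at 2-fold. T cells were C1q negative cells with at least 2 UMIs of Cd3 genes. Doublets were not removed, except in an alternative that used Scrublet scores.

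The members of the group and the gene lists were chosen with earlier results of these data known. Named genes were the 6 markers, Pgam1 and Pgam2, the 10 largest ratios in each direction between libraries, the 15 largest and 10 smallest ratios to mirror cells outside the 8 genes of the rule, and up to 6 members of each list. Some members of the lists named beyond these were chosen after their values were seen. A few genes that these rules would name are not reported here. Coordinates are from GENCODE M21, in which 28339 of 28692 gene identifiers were found. The calculation was tested on simulated counts. The tools were R 4.3.3 with edgeR 4.0.16 (for TMM factors alone), Python 3.11.15 with scanpy 1.11.5, matplotlib 3.10.9, pandas 2.3.3, scipy 1.17.1 and numpy 2.4.6.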

Additional observations from a re-analysis of the deposited data

Results flagged for a closer look

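Among the genes named by rank, 3 had ratios on opposite sides of 0 in the selected cells and in mirror cells, with both intervals apart from 0. On the log2 scale, the KO to control ratio of Cxcl9 was 7.97 in the selected cells with 0 control UMIs set to 3 (interval from 7.65 upward), and in mirror cells -2.63 with 0 KO UMIs set to 3 (interval from -2.31 downward). Of the 133 Cxcl9 UMIs of control mirror cells, 132 were in those without the markers and 1 in those with them. For Gbp2 it was 5.40 and -1.39. In the KO library 1 cell held all 113 Cxcl9 UMIs and 56 of 57 Gbp2 UMIs, and the other 9 cells had 1 Gbp2 UMI (10.2 CPM, against 9 UMIs and 11.9 CPM in the control, interval of the log2 ratio -5.68 to 2.63). For Ccl12 the ratio was 2.08 in the selected cells, with 104 of 125 KO UMIs in 1 other cell. Without the cell with most Ccl12 UMIs in each library, it was at 215 CPM (KO) and 173 CPM (control). In mirror cells it had 96 control and 2 KO UMIs, and the interval of the ratio was -5.81 to -0.85. Of the other genes named in the text, the same held for Ccl2 (-0.95 in the selected cells and 1.05 in mirror cells), Fth1 (0.77 and -0.17), C1qa (0.39 and -0.23), Maf (0.22 and -0.45) and C1qc (0.21 and -0.22). Mirror cells with the markers were 68.1% of the mirror cells of the control and 51.4% of those of the KO library. In them alone C1qa was at 4043 CPM (KO) and 3781 CPM (control), so its opposite sign did not hold there. The part of this share in the other ratios was not tested. None of the differences in this paragraph was tested, since each genotype has 1 library.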

How the results depend on the processing

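No paired analysis was possible because each genotype has 1 library. Over 19 alternatives, 347 of 444 KO to control ratios of 27 named genes stayed within the interval first given, 86 moved with the same sign and 11, of 8 genes, changed sign. Of 421 ratios to mirror cells of 25 genes, the numbers were 330, 86 and 5, of 3 genes. With limits of 1000 genes and 5% mitochondrial UMIs, 32 control cells were selected (13.6% of C1q positive cells), 51 genes were higher and 89 lower in the KO cells, Ccl3 was at -0.57 and Rgs5 at 0.53, and Postn at -0.77 against mirror cells. A marker sum of at least 1 gave Hba-a2 at 0.028. A marker sum of at least 5 left 5 KO cells, with Hmox1 at -0.50, and Gzma at -1.57 and Nkg7 at -0.074 against mirror cells. A C1q sum of at least 10 gave Gzma at -1.25. Dcn at most 1 gave 178 genes lower in the KO cells. Thinning to 2000 UMIs left 4 KO cells, 135 genes lower, Hmox1 at -0.42 and 152 genes higher than in mirror cells. TMM and median-of-ratios factors each gave 140 genes higher than in mirror cells. A minimum of 20 UMIs gave 330 genes higher in the KO cells and 561 higher than in mirror cells, and a minimum of 100 UMIs 45 higher and 81 lower, and 102 and 130 against mirror cells. Without cells carrying markers of another type (28 control and 3 KO cells left), 38 genes were higher and 72 lower, 426 were higher than in mirror cells, Hmox1 was at -0.51, Sparc at 1.23 and Cd209a at 0.23. In that setting counts under 3 were set to 3, so that the sign of the last 2 ratios follows from the depths of the groups. None of the 3 KO cells left there had a Folr2 UMI. The causes of the other changes were not tested. The following were chosen after seeing the data. Any second sum gave 373 control cells (68.7%) and 29 KO cells (43.3%), 742 genes lower in the KO cells and 852 higher than in mirror cells. Mirror cells with the markers alone gave 96 higher and 89 lower. Without the 2 control cells richest in T and NK and in mural markers, Gzma was at -1.79. Without the 6 control cells with 100 or more erythroid UMIs, Hbb-bs was at 0.61, Hba-a1 at 0.56 and Hba-a2 at 0.61. With 10 KO cells, 1 library each and 113097 KO UMIs, genes of low level rest on few counts.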

Other observations

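Genes of the glucocorticoid response and of the clock were looked at in the selected cells after their values were seen. Of 5 glucocorticoid genes with at least 50 UMIs, Dusp1 was 2-fold higher in the KO cells and none lower (median log2 ratio 0.07), beside 3.72% of all genes higher and 10.4% lower. The clock genes with at least 50 UMIs, Clock (67 control and 3 KO UMIs, interval of the log2 ratio -4.06 to -0.13) and Nr1d1 (50 and 1, -8.24 to -0.36), were both 2-fold lower, and the 14 clock genes summed to 442 CPM in the control and 345 CPM in the KO cells. Fkbp5 and Per1 were below that minimum. Fkbp5, which encodes a co-chaperone of the glucocorticoid receptor and is induced by it, had 11 control and 16 KO UMIs in the selected cells, a log2 ratio of 3.28 (2.08 to 4.53), in 7 of 10 KO cells. In mirror cells it was at 2.66 (2.14 to 3.19), and in T cells at 0.26 (-0.14 to 0.66). Per1, a clock gene that glucocorticoids also induce, had 14 UMIs in control and 17 in KO cells (8 of 10), with a log2 ratio of 3.02 (1.91 to 4.15), and was at 1.54 in mirror cells and 1.18 in T cells. Tsc22d3, another gene of this response, was at -0.05 (-0.72 to 0.56) in the selected cells and 0.20 in mirror cells, and Sgk1 at 0.10 and 0.24. The hour at which either tissue was taken is not given in the sources used here.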
